A study of Mus musculus with 12 samples.

Results

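The genes described here are 7 zinc finger genes of the mouse X chromosome, Zfp182, Zfp300, Zfp92, Zfp275, Zfp449, Zfp711 and Zfp280c, chosen by name from 952 X-linked genes. All 7 had a value in each of the 8 libraries, as did 698 of the 952 genes. H3K9me3 and H3K27me3, trimethylation of lysines on histone H3, were profiled by ChIP-seq, the sequencing of DNA bound to immunoprecipitated chromatin, in female cells. EpiSCs are epiblast stem cells, here of stage E6.5, and MEF are embryonic fibroblasts of stage E13.5. Cells were Smchd1+/+ (WT) or Smchd1 MD1/MD1 (MD1), the latter lacking the chromosomal protein SmcHD1. Every group came from a cross of C57BL6/J with an F1 of JF1 x C57BL6/J and carried Xist deltaA/+, a deletion of the part of Xist RNA needed for silencing. The 8 ChIP libraries, with mouse monoclonal antibodies CMA318 for H3K9me3 and CMA323 for H3K27me3, and 4 input libraries form 12 groups of 1 library. No difference therefore has a replicate check, and none was tested. The sources used here do not give the number of animals or cultures behind a library.

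H3K9me3 is laid down by enzymes such as SETDB1 and marks constitutive heterochromatin, while H3K27me3 is the product of Polycomb complex PRC2. Both are found on the inactive X, the chromosome that Xist RNA silences in female cells, and SmcHD1 takes part in keeping that chromosome silent. C2H2 zinc finger proteins bind DNA through repeated fingers, and those with a KRAB domain recruit TRIM28 and SETDB1, which leads to H3K9me3 at their targets. In other cell types, KRAB zinc finger genes are also known to carry H3K9me3 themselves, over the exons that encode the fingers. The comparison of WT with MD1 asks how the 2 marks over these genes depend on SmcHD1.

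Values are log2 enrichments as the authors deposited them, 1 per gene and library, taken to be a ratio of ChIP to input from those cells. Each library has its own scaling constant, so every MD1 minus WT difference includes a ratio of 2 constants, which is the same for all genes of the comparison. Differences between 2 genes within one comparison do not include it. The sources used here do not say which of the 2 X chromosomes the reads came from. Intervals in parentheses are 95% counting intervals from the whole-number pairs behind each value. They cover counting error only, not the spread between cultures or preparations. The median gene had a ChIP number of 70 in WT and 13 in MD1 EpiSCs for H3K9me3, 53 in WT and 29 in MD1 MEF, and 293 to 678 for H3K27me3. Summed over genes, the ChIP numbers came to 33117 to 188886 for H3K9me3 and 879526 to 1804080 for H3K27me3. The table holds X-linked genes, so Smchd1 itself and autosomal markers of the cell types were not analysed here. Short reads from repeated finger exons may be placed on more than 1 gene, and this was not examined.

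The 7 genes lie at 5 places on the X in mm9. Zfp182 (X, 20603310 to 20639164, minus strand) and Zfp300 (X, 20656276 to 20666355, minus strand) are 17.1 kb apart with Spaca5 between them. Zfp275 (X, 70587959 to 70604419, plus strand) and Zfp92 (X, 70656442 to 70672326, plus strand) are 52.0 kb apart with no listed gene between. Zfp280c (X, 45894803 to 45947629, minus strand), Zfp449 (X, 53599577 to 53618851, plus strand) and Zfp711 (X, 109714135 to 109748671, plus strand) stand alone. Neighbouring members share their surroundings and are not independent. Each value summarises a whole gene, so exons and introns were not separated. The members' median length was 19.3 kb against 20.6 kb for the 698 genes with all values. All 7 are protein-coding genes in RefSeq.

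In WT EpiSCs the members split into H3K9me3-rich and H3K27me3-rich genes. The first were Zfp182, Zfp300, Zfp449 and Zfp711, with H3K9me3 of 3.53 to 4.11 and H3K27me3 of -1.87 to 0.91. Zfp92 and Zfp275 had H3K9me3 of 0.12 and 0.85 but H3K27me3 of 4.66 and 4.99. Zfp280c carried both marks, at 2.83 and 3.57. The medians of all genes in the same libraries were 2.03 for H3K9me3 and 4.17 for H3K27me3. A gene was counted as H3K9me3-rich if its deposited enrichment was at least 2-fold. Counts of rich genes depend on the constant of each library, and no centring was applied to them. In WT EpiSCs 5 of 7 members were rich, where 64% of 719 genes were, which is near the background. In WT MEF 4 of 7 were rich, against 20.3% of 747 genes.

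**Figure D1:**
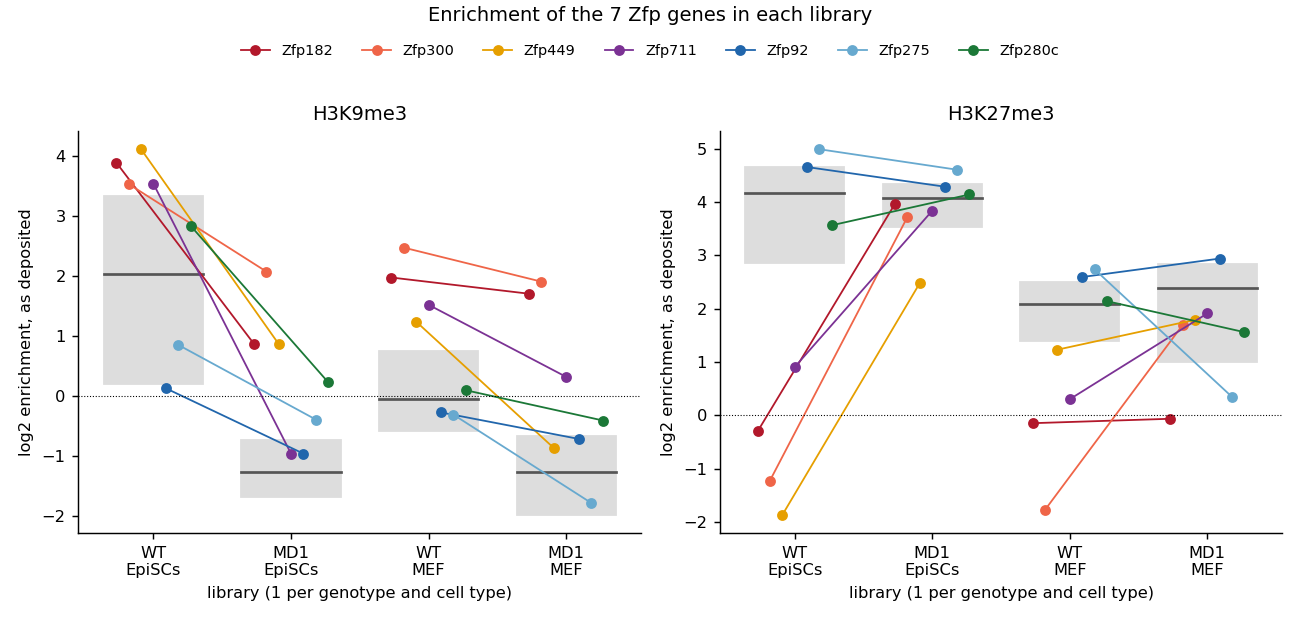
Log2 enrichment as deposited (vertical axis) of the 7 genes in the 4 H3K9me3 libraries (left) and the 4 H3K27me3 libraries (right), with lines joining WT and MD1 of the same cell type. The grey box spans the quartiles of all genes measured in that library and the dark line is their median; Zfp182 and Zfp300 lie above the H3K9me3 box in all 4 libraries and Zfp449 lies under the H3K27me3 box in WT EpiSCs, at -1.87.

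In MD1 EpiSCs the deposited H3K9me3 values of all 7 members were at least 2-fold lower than in WT, as were 82.9% of 708 genes; with a pseudocount of 0.1 Zfp92, at -0.96, no longer passed and 6 did. None was at least 2-fold higher, where 1.13% of genes were. The members' median change was -2.61 on the log2 scale and that of all genes -2.98. Centred on all genes, which removes the difference of -3.30 between the 2 library medians, only Zfp711 was at least 2-fold lower, at -1.20. Zfp300, Zfp92 and Zfp275 were then 1.84, 2.21 and 2.05 higher. Centred instead on the 256 genes not rich in H3K9me3, these genes stood at -0.27, 0.10 and -0.06. With that centring 4 members were at least 2-fold lower and 0 higher. Shares of all genes are not given for either centring. The shift of -3.30 is larger in size than the median change of all genes, -2.98. A positive value after it therefore does not by itself place a gene above the median gene. Members with a change above that median numbered 4, and Zfp182 and Zfp449 were not among them.

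H3K27me3 in EpiSCs was at least 2-fold higher in MD1 for the 4 members with the lowest WT values, Zfp182, Zfp300, Zfp449 and Zfp711, and lower for none. Among 708 genes 22.7% were higher and 11.3% lower. These 4 stood 7.65-fold to 30.9-fold higher, and stayed at least 2-fold higher when the values were centred on all genes (a shift of -0.10) or on the 256 genes not rich in H3K9me3 (a shift of -0.47), which also took Zfp280c to 1.04. The median change of the 6 neighbours was 3.01 for Zfp182, 3.05 for Zfp300, 1.79 for Zfp449 and 2.51 for Zfp711. After subtraction of the neighbours' median change 3 passed, without Zfp711, at 0.42. Shares of all genes are not given for the centrings or this subtraction. The members' H3K27me3 range narrowed from -1.87 to 4.99 in WT EpiSCs to 2.48 to 4.61 in MD1 EpiSCs. The quartiles of all genes also narrowed, from 2.85 and 4.65 to 3.54 and 4.33. The median change was 2.93 for the members and -0.07 for all genes. With the neighbours' changes subtracted, the members' median was 0.42.

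In MEF, H3K9me3 was at least 2-fold lower in MD1 for 3 members, Zfp449, Zfp711 and Zfp275, against 51.3% of 739 genes, and higher for none, against 0.677%. Centred on all genes, a shift of -1.19, none of the 7 was at least 2-fold lower. The share of all genes under this centring is not given. H3K27me3 in MEF was at least 2-fold higher for Zfp300 and Zfp711, where 22.3% of genes were, and lower for Zfp275, where 24% were. The members' median H3K27me3 change was 0.35 and that of all genes 0.34. In MD1 EpiSCs 1 of 7 members was H3K9me3-rich (Zfp300, against 5.3% of 736 genes). In MD1 MEF 2 of 7 were rich (Zfp182 and Zfp300, against 2.92% of 754 genes).

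**Figure D2:**
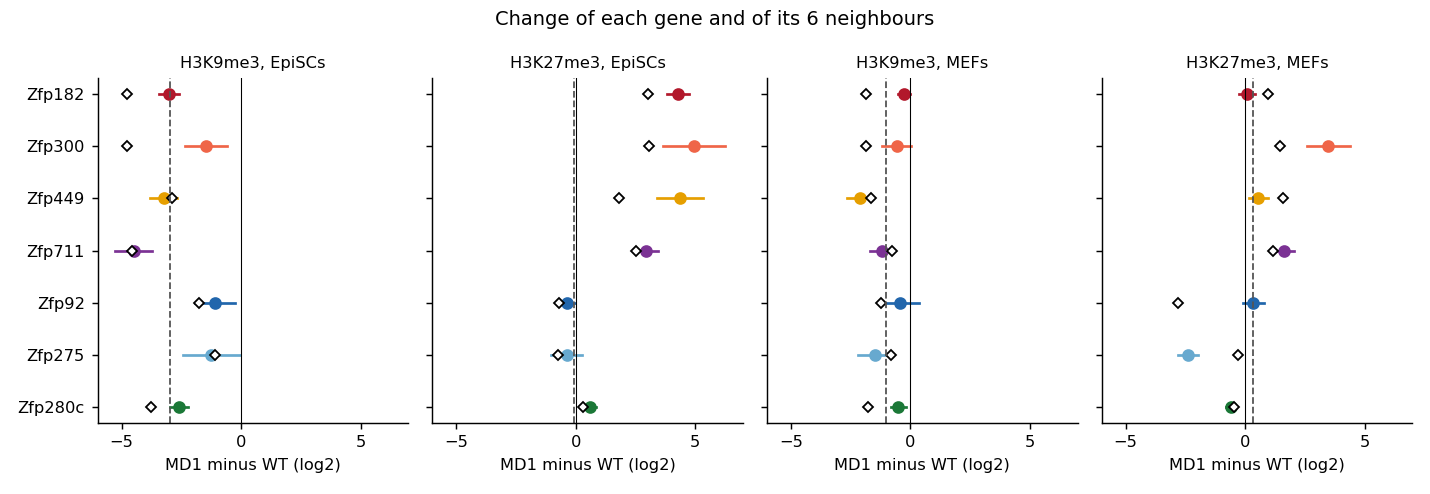
MD1 minus WT difference in log2 enrichment (horizontal axis) of each gene, with its 95% counting interval as a bar; open diamonds are the median change of the 3 measured genes on each side and the dashed line is the median of all genes. All 7 genes are to the left of 0 for H3K9me3 in EpiSCs as deposited, and 4 of them are to the right of the dashed line. When centred on all genes, by a shift larger in size than the median change, 6 move to the right of 0. Centred on genes not rich in H3K9me3, only Zfp92 moves to the right of 0, at 0.10. Zfp182, Zfp300, Zfp449 and Zfp711 are far to the right for H3K27me3 in EpiSCs.

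Among the KRAB zinc finger genes, Zfp182 had H3K9me3 of 3.88 in WT EpiSCs, 0.87 in MD1 EpiSCs, 1.97 in WT MEF and 1.70 in MD1 MEF. Its H3K27me3 was -0.30, 3.97, -0.15 and -0.06 in the same order. H3K9me3 was lower in MD1 EpiSCs and nearly as high in MD1 as in WT MEF, and H3K27me3 was above 0 in MD1 EpiSCs alone among the 4 libraries, where it lay near the median gene. The H3K9me3 change was -3.02 in EpiSCs (-3.42 to -2.61; 0.28 when centred on all genes). In MEF it was -0.27 (-0.54 to -0.00), or 0.92 when centred. The H3K27me3 change was 4.28 in EpiSCs (3.82 to 4.73), a 19.4-fold difference, and 0.08 in MEF (-0.24 to 0.41). The EpiSC change in H3K27me3 exceeded the MEF change by 4.19 (3.63 to 4.75), a difference between single libraries.

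Zfp300, the shortest member at 10.1 kb, encodes another KRAB zinc finger protein. Its H3K9me3 was 3.53 in WT EpiSCs, 2.07 in MD1 EpiSCs, 2.47 in WT MEF and 1.90 in MD1 MEF. Its H3K27me3 was -1.23, 3.72, -1.77 and 1.69. It kept the highest H3K9me3 of the 7 in both MD1 libraries, where 97.4% of genes in EpiSCs and 99.2% in MEF had lower values, and in WT MEF 0.402% of genes had less H3K27me3. The H3K9me3 change was -1.46 in EpiSCs (-2.34 to -0.57) and -0.57 in MEF (-1.17 to 0.04). Centred on all genes both turned positive, to 1.84 and 0.63. Centred on genes not rich in H3K9me3 they stood at -0.27 and 0.42. H3K27me3 was 4.95 higher in MD1 EpiSCs (3.65 to 6.25), a 30.9-fold difference resting on a WT ChIP number of 7. In MEF it was 3.47 higher (2.57 to 4.37), from a WT ChIP number of 16, and 99.6% of genes had a smaller change.

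Although 17.1 kb apart, Zfp182 and Zfp300 did not change alike. In MEF the H3K27me3 change of Zfp300 exceeded that of Zfp182 by 3.39 (2.43 to 4.34), while their H3K9me3 changes differed by -0.30 (-0.96 to 0.36). In EpiSCs Zfp300 kept more H3K9me3, its change exceeding that of Zfp182 by 1.56 (0.59 to 2.53), and the H3K27me3 changes differed by 0.67 (-0.70 to 2.05). Spaca5, which lies between them, had values in MEF, where its H3K9me3 was 2.05 in WT and 0.67 in MD1, lower than both members in MD1. Its H3K27me3 in MEF was 0.29 and 1.47.

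The RefSeq promoter window of Zfp300 and that of Zfp275 are printed because these genes had the lowest and the highest H3K27me3 of the 7 in WT MEF and differed most over the 8 values. Each runs from 250 bases before to 50 after the annotated start, in GRCm38.p6, a different build from that of the deposited values; capitals mark CG dinucleotides, the site of DNA methylation, which reads the same on both strands.
Zfp300, chrX:21089180-21089479, minus strand: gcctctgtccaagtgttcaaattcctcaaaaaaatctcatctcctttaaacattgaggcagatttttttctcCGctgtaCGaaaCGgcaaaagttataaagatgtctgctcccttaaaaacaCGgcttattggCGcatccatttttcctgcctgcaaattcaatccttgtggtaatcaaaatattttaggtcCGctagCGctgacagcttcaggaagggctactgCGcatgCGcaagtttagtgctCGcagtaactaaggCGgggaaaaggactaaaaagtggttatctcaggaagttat
Zfp275, chrX:73342370-73342669, plus strand: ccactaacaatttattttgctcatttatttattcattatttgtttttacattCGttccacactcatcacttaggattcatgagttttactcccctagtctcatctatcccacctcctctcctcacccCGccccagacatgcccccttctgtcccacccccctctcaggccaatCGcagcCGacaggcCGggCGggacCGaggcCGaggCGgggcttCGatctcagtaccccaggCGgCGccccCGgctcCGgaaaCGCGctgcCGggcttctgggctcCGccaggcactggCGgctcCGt
The Zfp300 window holds 11 CG dinucleotides and is 42.7% G and C, and 63.9% of 1223 X-linked promoter windows hold fewer CG. The Zfp275 window holds 20 CG, is 58.7% G and C, and 83.0% of the X-linked windows hold fewer. The median X-linked window holds 7 CG, and every window in this count has the same length. Of the 7 members 4 have a window in the table used, the others being Zfp92, with 14 and 5 CG at 2 annotated starts, and Zfp280c, with 8. The deposited values cover whole genes and do not measure these windows separately.

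Zfp92, also of the KRAB class, had little H3K9me3. Its values were 0.12 in WT EpiSCs, -0.96 in MD1 EpiSCs, -0.28 in WT MEF and -0.72 in MD1 MEF, and its H3K27me3 was 4.66, 4.29, 2.60 and 2.94. H3K27me3 was high in all 4 libraries, above 70.4% to 83.6% of genes. The H3K27me3 change was -0.37 in EpiSCs (-0.72 to -0.01) and 0.35 in MEF (-0.09 to 0.78). The H3K9me3 change was -1.09 in EpiSCs (-1.91 to -0.26), from ChIP numbers of 37 and 23, and -0.44 in MEF (-1.24 to 0.36). The EpiSC change was 2.21 when centred on all genes and 0.10 when centred on genes not rich in H3K9me3. Of the 3 KRAB genes, Zfp182 and Zfp300 were thus high in H3K9me3 and low in WT H3K27me3, and Zfp92 was the reverse.

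Zfp275, the C2H2 gene next to Zfp92, had H3K9me3 of 0.85 in WT EpiSCs, -0.40 in MD1 EpiSCs, -0.31 in WT MEF and -1.78 in MD1 MEF. Its H3K27me3 was 4.99, 4.61, 2.74 and 0.34, the highest of the members in 3 libraries and the second lowest in MD1 MEF. In the latter the H3K27me3 value lay above 19.9% of genes, after 87.1% in WT MEF. The change in MEF was -2.40 (-2.81 to -1.98), with ChIP numbers of 688 and 178, and in EpiSCs -0.38 (-1.02 to 0.25). H3K9me3 changed by -1.24 in EpiSCs (-2.45 to -0.04) and by -1.47 in MEF (-2.21 to -0.72). Centred on all genes these changes were 2.05 and -0.28. Centred on genes not rich in H3K9me3 they were -0.06 and -0.48.

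The neighbours Zfp275 and Zfp92 resembled each other in EpiSCs and differed in MD1 MEF. Their H3K27me3 changes in EpiSCs differed by 0.02 (-0.71 to 0.74), whereas in MEF that of Zfp92 exceeded that of Zfp275 by 2.74 (2.14 to 3.34). The 3 genes beyond Zfp92, Trex2, Haus7 and Bgn, had H3K27me3 of -0.87, -0.41 and -0.58 in MD1 MEF, so that Zfp92, at 2.94, had lower values directly on both sides. Beyond Zfp275, F8a and Xlr3a had 2.26 and 2.99. The H3K9me3 changes of the pair differed by 0.16 in EpiSCs (-1.30 to 1.61) and by 1.03 in MEF (-0.07 to 2.12).

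Zfp449, which encodes a zinc finger protein with a SCAN domain, a protein-binding domain, had the highest H3K9me3 of the 7 in WT EpiSCs. Its H3K9me3 was 4.11 in WT EpiSCs, 0.86 in MD1 EpiSCs, 1.23 in WT MEF and -0.87 in MD1 MEF, and its H3K27me3 was -1.87, 2.48, 1.23 and 1.79. In EpiSCs H3K27me3 was the lowest of the members in both genotypes, although 4.35 higher in MD1 than in WT (3.39 to 5.32; 20.5-fold, from a WT ChIP number of 11). H3K9me3 changed by -3.24 in EpiSCs (-3.82 to -2.66; 0.05 when centred on all genes) and by -2.10 in MEF (-2.66 to -1.54; -0.91 when centred). In MEF the H3K27me3 change was 0.56 (0.17 to 0.95). In MD1 EpiSCs the gene lay between higher and lower H3K9me3: the 3 measured genes at lower coordinates, 1600025M17Rik, Gm773 and 3830403N18Rik, had 2.54, 2.58 and 2.49, and the next 2 at higher coordinates, Ddx26b and Gm648, had -1.18 and -0.57.

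Zfp711, a relative of ZFX that acts as a transcriptional activator and has been linked to X-linked intellectual disability, had the largest H3K9me3 difference of the 7 in EpiSCs as deposited, though not in MEF or when centred on all genes. Its H3K9me3 was 3.53 in WT EpiSCs, -0.96 in MD1 EpiSCs, 1.52 in WT MEF and 0.32 in MD1 MEF, and its H3K27me3 was 0.91, 3.84, 0.30 and 1.91. In MD1, H3K9me3 was lower and H3K27me3 higher in both cell types, as deposited. The H3K9me3 change was -4.49 in EpiSCs (-5.26 to -3.73; -1.20 when centred on all genes) and -1.20 in MEF (-1.67 to -0.73; -0.01 when centred). The H3K27me3 change was 2.93 in EpiSCs (2.43 to 3.44), a 7.65-fold difference, and 1.61 in MEF (1.18 to 2.04). Its neighbours changed by similar amounts, with a median of -4.58 for H3K9me3 and 2.51 for H3K27me3 in EpiSCs.

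Zfp280c, whose RefSeq synonym is Suhw3 after the fly insulator protein Suppressor of Hairy-wing, carried both marks in WT EpiSCs. Its H3K9me3 was 2.83 in WT EpiSCs, 0.23 in MD1 EpiSCs, 0.09 in WT MEF and -0.41 in MD1 MEF. Its H3K27me3 was 3.57, 4.14, 2.14 and 1.56, above 32.8% to 55.8% of genes in the 4 libraries. H3K9me3 changed by -2.61 in EpiSCs (-2.98 to -2.23; 0.69 when centred on all genes) and by -0.51 in MEF (-0.83 to -0.19; 0.69 when centred). The H3K27me3 changes had opposite signs, 0.58 in EpiSCs (0.32 to 0.83) and -0.58 in MEF (-0.79 to -0.37). With 52.8 kb it is the longest of the 7, and its intervals are among the narrowest.

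Ranks within a library do not depend on the scaling constant. Zfp182 and Zfp300 ranked high for H3K9me3 throughout, above 91.9% to 98.7% and 80.0% to 99.2% of genes. Zfp449 had a higher H3K9me3 rank in EpiSCs, at 96.5% in WT and 93.9% in MD1, than in MEF, at 84.3% and 67.4%. In MD1 EpiSCs all 7 members lay above the median gene for H3K9me3, after 5 in WT, and in MD1 MEF 6 did, after 5. For H3K27me3, 2 members lay above the median in WT EpiSCs, 3 in MD1 EpiSCs, 3 in WT MEF and 1, Zfp92, in MD1 MEF. Zfp182, Zfp300, Zfp449 and Zfp711 combined more H3K9me3 than at least 65.6% of genes with less H3K27me3 than the median gene in each library. They were grouped above by this same pattern in WT EpiSCs, and the share of all genes with the combination is not given.

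**Figure D3:**
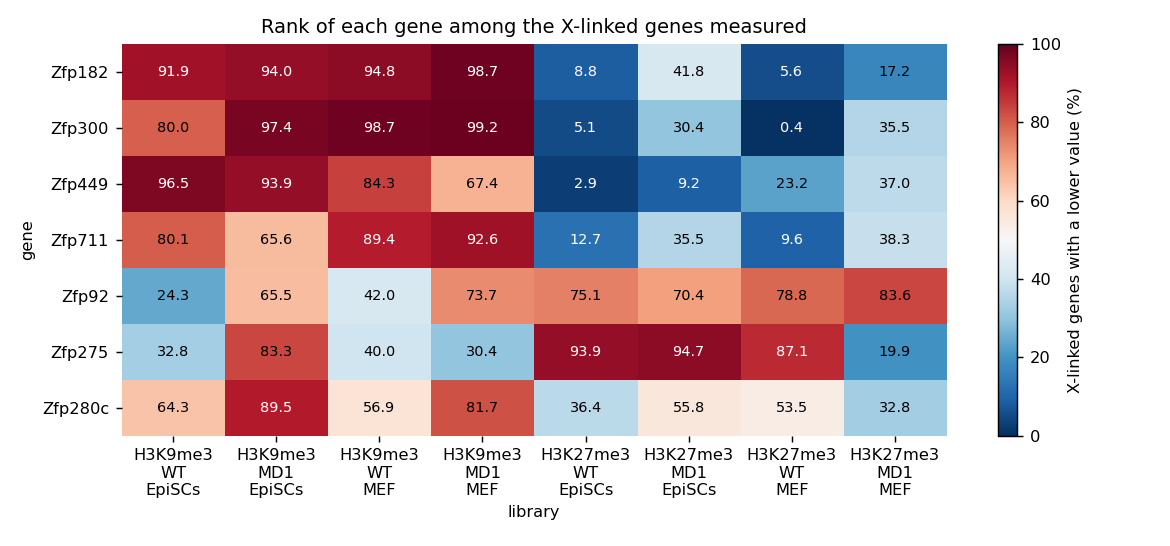
Rank of each gene (rows) in each library (columns), as the percentage of X-linked genes measured in that library with a lower value. The 4 upper genes are red for H3K9me3 and blue for H3K27me3 in every library, and Zfp275 goes from 87.1% to 19.9% for H3K27me3 between WT and MD1 MEF.

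Setting each gene against the median of the 3 nearest measured genes on each side asks whether it stood apart from the stretch around it. In WT EpiSCs no member's H3K9me3 was at least 2-fold above its neighbours (6.4% of genes were), and the differences ran from -0.25 to 0.94, although Zfp275 passed at 1.24 when its neighbours were taken from genes that are not members. In MD1 EpiSCs 4 of 7 were, against 12.4% of genes. These were Zfp300 by 3.20, Zfp182 by 1.87, Zfp280c by 1.81 and Zfp275 by 1.10. In WT MEF none was (8.97% of genes), although Zfp300 passed at 1.05 with neighbours that are not members. In MD1 MEF 4 were, against 13.3% of genes, namely Zfp300 by 2.61, Zfp182 by 2.41, Zfp280c by 1.56 and Zfp92 by 1.07.

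Zfp182, Zfp300 and Zfp280c stood above their neighbours in both MD1 libraries. In MD1 EpiSCs the neighbours' median H3K9me3 was -0.999 for Zfp182, -1.13 for Zfp300 and -1.58 for Zfp280c. In MD1 MEF it was -0.71, -0.71 and -1.97. All 6 neighbours of Zfp280c were lower than it in both MD1 libraries, the nearest, Rab33a and Slc25a14, at -2.55 and -1.40 in EpiSCs. Of the nearest genes outside the Zfp182 and Zfp300 pair, A230072C01Rik had -0.80 and 4930453H23Rik -0.08 in MD1 EpiSCs, after 3.74 and 3.84 in WT. Zfp449 and Zfp711, by contrast, lay -0.60 to -0.06 from their neighbours in the MD1 libraries.

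**Figure D4:**
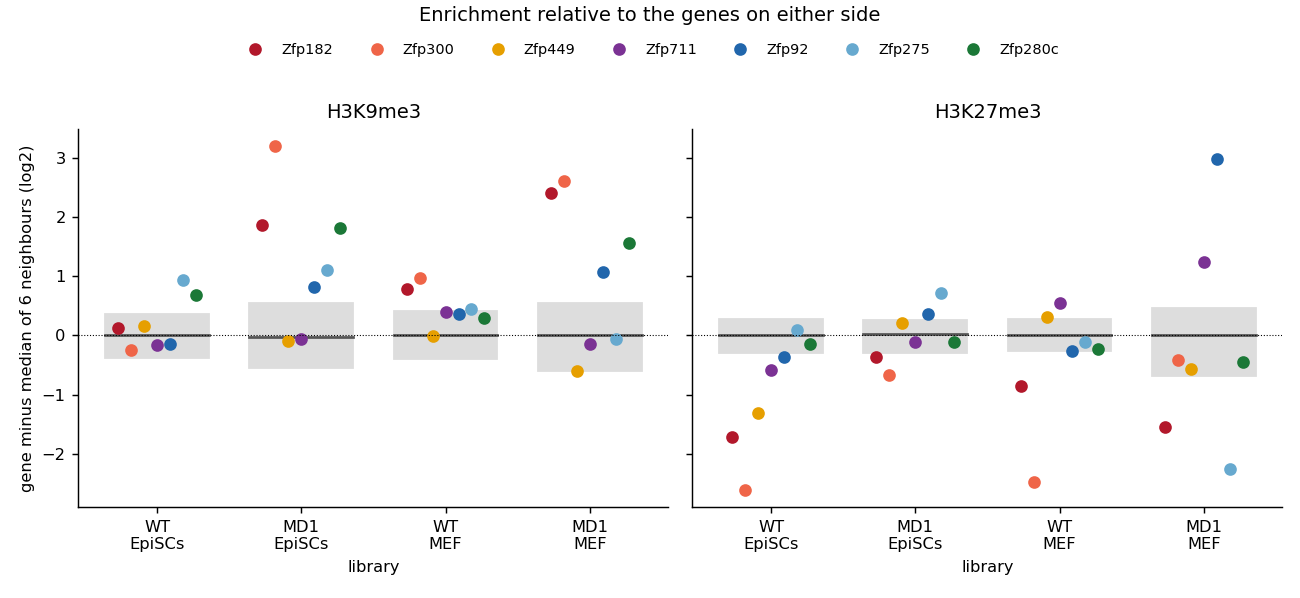
Log2 enrichment of each gene minus the median of its 6 neighbours (vertical axis) in each library, for H3K9me3 (left) and H3K27me3 (right); grey boxes span the quartiles of all genes and the dark line is their median. For H3K9me3 the points lie within 1 of 0 in both WT libraries, whereas Zfp182, Zfp300 and Zfp280c lie at 1.56 to 3.20 in the MD1 libraries.

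For H3K27me3, 3 members lay at least 2-fold under their neighbours in WT EpiSCs, against 9.32% of genes: Zfp300 by -2.62, Zfp182 by -1.72 and Zfp449 by -1.31. None did in MD1 EpiSCs (10.1% of genes). In WT MEF 1 member did, Zfp300 by -2.48, against 5.62% of genes. In MD1 MEF 2 did, Zfp275 by -2.26 and Zfp182 by -1.55, against 21.9% of genes. The first rests on Zfp92 being a neighbour: with neighbours that are not members Zfp275 lay at -0.58. In the same library 2 members lay at least 2-fold above their neighbours, against 12.5% of genes, namely Zfp92 by 2.98 (2.02 with neighbours that are not members) and Zfp711 by 1.25.

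**Figure D5:**
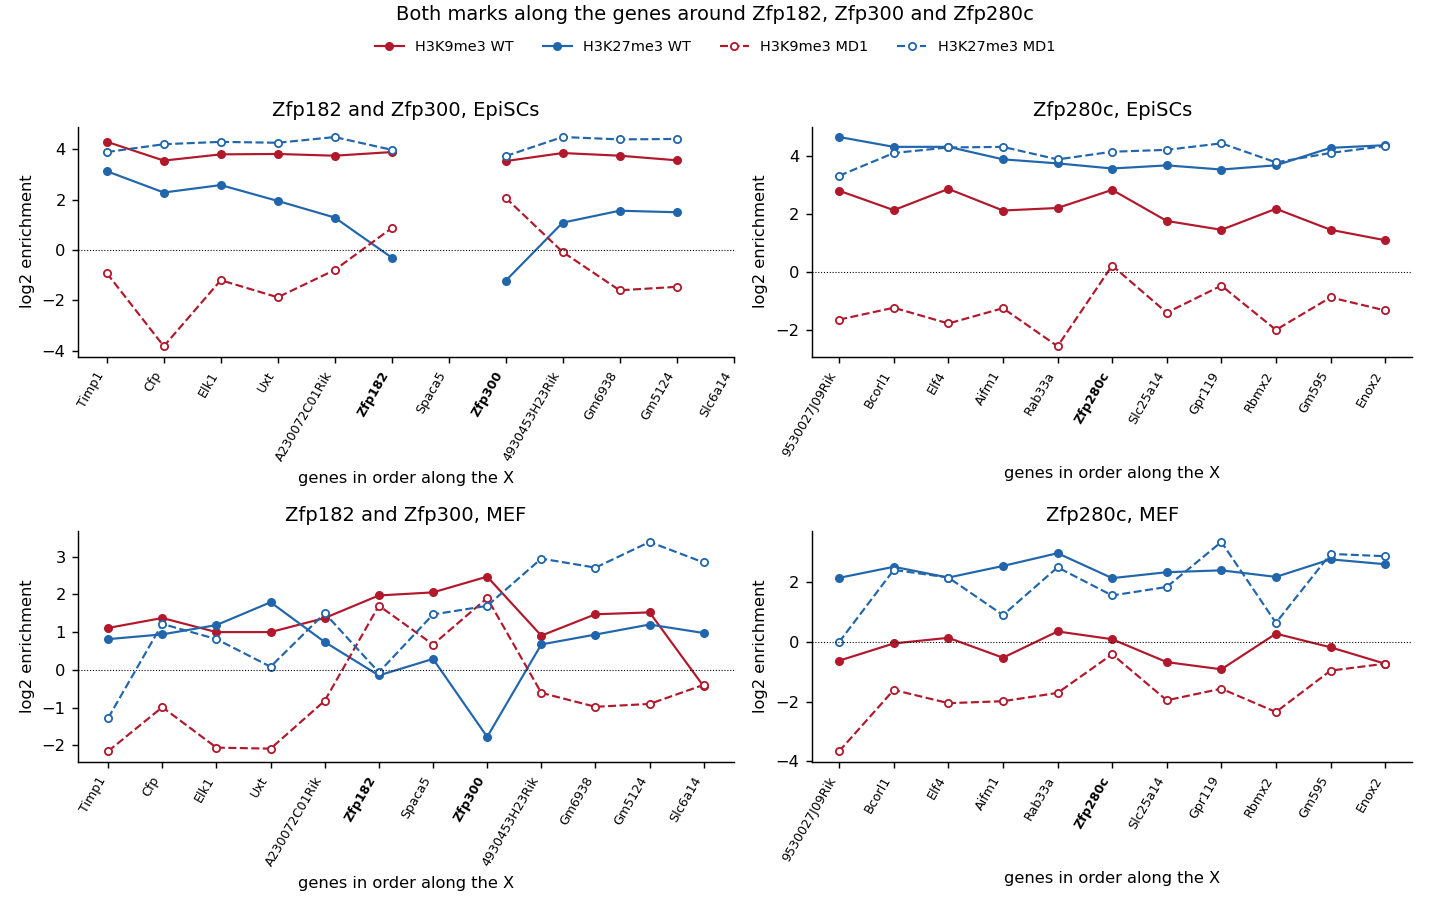
Log2 enrichment of both marks (vertical axis) along genes in order, not to distance (horizontal axis), in EpiSCs (top) and MEF (bottom). The genes lie around Zfp182 and Zfp300 (left) and Zfp280c (right), and genes with no value in any library are left out. Filled points are WT and open points MD1, and gaps are genes with no value in that cell type. In MD1 the H3K9me3 line peaks at the named genes, at 0.87 and 2.07 for Zfp182 and Zfp300 and 0.23 for Zfp280c in EpiSCs, and the WT H3K27me3 line dips at Zfp182 and Zfp300.

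Genes with 8 values most like those of each member were taken by the root mean square difference in log2 enrichment among 698 genes. Those of Zfp711 were its neighbours 2010106E10Rik (0.38) and Pof1b (0.40). Zfp275 was close to Rbbp7 (0.43), and Zfp92 was closest to Tex11 (0.17), which lies 27.4 Mb away. Zfp449 was closest to Wdr44 (0.46) and Prrg1 (0.54), and Zfp280c to the entry Tmsb15b2,Tmsb15l (0.40) and to Trmt2b (0.43). The least matched were Zfp182, closest to Satl1 (0.51) and Ssxb10 (0.75), and Zfp300, closest to Pet2 (0.88) and Ssxb8 (0.90); the Ssxb genes belong to a family of near-identical copies, between which reads may be split. Among the members, Zfp182 and Zfp300 differed by 1.03, Zfp92 and Zfp275 by 1.06, and the farthest pair, Zfp300 and Zfp275, by 3.47.

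Other X-linked zinc finger genes give a comparison by name. Of 6 further C2H2 genes, among them Zfx, Klf8, Zbtb33, Zxda and Zxdb, 4 were measured in EpiSCs. H3K9me3 was at least 2-fold lower in MD1 for all 4, against 82.9% of all genes, with a median change of -2.91. H3K27me3 in EpiSCs passed 2-fold in none of these 4, where 22.7% of all genes were higher and 11.3% lower, with a median change of 0.22. In MEF all 6 were measured, and 3 had H3K9me3 at least 2-fold lower, against 51.3% of all genes, with a median of -1.08. H3K27me3 in MEF was at least 2-fold lower in 4, against 24% of all genes, with Zfx at -5.60, Zbtb33 at -5.16, Zxda at -2.20 and Zxdb at -1.15. It was at least 2-fold higher in 1, against 22.3% of all genes. None of the C2H2 genes with a value was H3K9me3-rich in either MD1 library, where 5.3% of genes in EpiSCs and 2.92% in MEF were. Of 17 genes with zinc fingers of other classes, 13 were measured in EpiSCs and 16 in MEF. H3K9me3 was at least 2-fold lower in 11 and 8, which is near the background of 82.9% and 51.3% of all genes. Their H3K27me3 was at least 2-fold higher in 1 and lower in 1 in EpiSCs, and higher in 4 and lower in 5 in MEF. Of all genes in MEF, 22.3% were higher and 24% lower. The C2H2 and other lists describe these libraries and were not tested against the members.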

How the data were processed

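Per the labels' protocols, fragments were size-selected and the library kit was NEBNext Ultra II. The build was mm9, and the tools SAMtools, BWA and cutadapt were listed, per the submitters' processing notes. The sources used here do not give versions, the counting rule or the constant of each library. For each of 952 X-linked genes the file deposited by the authors holds log2 enrichment, analysed as deposited with no filter. Starts were read as counting from 0 and are printed counting from 1.

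Changes are MD1 minus WT, and 2-fold is the threshold. Whole-number pairs (denominator at most 30000, relative tolerance 1e-12) were recovered for 100% of values in each library. They are the smallest possible, so real counts may be multiples; in the 8 simulated libraries (694 to 736 genes) 59.1% to 64.5% of pairs were the exact numbers. Counting intervals use a normal approximation on the log scale. In data simulated from the WT numbers, intervals of this kind covered 97.5% of true H3K9me3 changes in EpiSCs (694 genes). Of 4-fold changes 93.3% passed the threshold there. Both simulated genotypes started from WT depth, so the lower depth of MD1 EpiSCs, with a median H3K9me3 ChIP number of 13, was not simulated. The simulated pairs came from 1 mark, whereas the reported pairs share an input number across both marks. Coverage of the reported intervals is therefore not shown. Because input reads grow with gene length, long genes have narrower intervals: Spearman's rho of input number with length was 0.934 to 0.946 across 719 to 754 genes, which are not independent replicates.

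Named are all members, the 2 genes most like each, the C2H2 list and the neighbours described; a few of these genes are not reported here. Members and lists were chosen with earlier results of these data known, and Zfp449's flanking genes and Trex2, Haus7, Bgn, F8a and Xlr3a after their values were seen. Promoters came from RefSeq (GRCm38.p6), in which 7 of 7 members matched and 4 had a sequence. Python 3.11.15, numpy 2.4.6, pandas 2.3.3 and matplotlib 3.10.9 were used. Alternatives were a 3-fold threshold, 2 centrings, a pseudocount of 0.1, an input number of at least 20, and subtraction of neighbours. For changes, shares of all genes are given at the 2-fold threshold on the deposited values only.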

Additional observations from a re-analysis of the deposited data

Results flagged for a closer look

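For 2 of the 7 genes the H3K27me3 change had opposite signs in the 2 cell types. Zfp92 changed by -0.37 in EpiSCs and 0.35 in MEF, a difference of -0.71 (95% counting interval -1.28 to -0.15). Zfp280c changed by 0.58 in EpiSCs and -0.58 in MEF, a difference of 1.16 (0.83 to 1.49). Each cell type has 1 library per genotype, so these differences were not tested. They include the constants of 4 libraries, and neither gene passed 2-fold in either cell type as deposited. Centred on all genes, Zfp92 stayed opposite, at -0.27 in EpiSCs and 0.06 in MEF. Centred on genes not rich in H3K9me3, Zfp92 stood at 0.097 in EpiSCs and 0.074 in MEF, no longer opposite, and Zfp280c at 1.04 and -0.86.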

How the results depend on the processing

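H3K9me3 differences depended on how the libraries were scaled. Centred on all genes, the EpiSC count at least 2-fold lower went from 7 to 1 and the count higher from 0 to 3, with a median of 0.69. Zfp182 stood at 0.28, Zfp275 at 2.05, Zfp280c at 0.69, Zfp300 at 1.84, Zfp449 at 0.055 and Zfp92 at 2.21. That shift was larger in size than the median change of all genes. Zfp182 and Zfp449 thus had changes under that median despite their positive centred values. In MEF the count lower went from 3 to 0, with a median of 0.63. Centred on genes not rich in H3K9me3, 4 were lower in EpiSCs (median -1.42; Zfp92 at 0.10) and 1 in MEF (median 0.42). With a 3-fold threshold 4 were lower in EpiSCs and 1 in MEF, and 2 were rich in WT MEF. After subtraction of the 6 neighbours' median change, H3K9me3 was lower in 0 and higher in 3 in each cell type, with medians of 0.68 in EpiSCs and 0.80 in MEF; in EpiSCs Zfp182 stood at 1.75, Zfp280c at 1.16, Zfp300 at 3.32, Zfp711 at 0.088 and Zfp92 at 0.68. The H3K27me3 medians became 0.42 in EpiSCs and -0.10 in MEF, with 2 lower in MEF. With 6 neighbours that are not members, chosen after seeing the data, H3K9me3 was again lower in 0 and higher in 3, with medians of 0.58 and 0.50; in EpiSCs Zfp182 stood at 1.99, Zfp275 at 0.43, Zfp280c at 1.16, Zfp300 at 3.55, Zfp711 at 0.088 and Zfp92 at 0.58, the H3K27me3 medians were again 0.42 and -0.10, and 1 was lower in H3K27me3 in MEF, with Zfp275 at -0.40 after -2.08 with all neighbours. Of 168 recomputed single-gene changes 82 stayed within their counting interval and 86 did not. In all 46 turned sign, 18 of them changes of at least 2-fold as deposited. With a pseudocount of 0.1 all 28 stayed within their interval, and the H3K9me3 count lower in EpiSCs went from 7 to 6. An input number of at least 20 left all 28 unchanged, because the smallest input number of a member was 29. That filter could not change a value, so 28 of the 82 were fixed in advance. Shares of all genes are not given for changes under the centrings, the 3-fold threshold or the subtraction of neighbours. The counts of members under these settings therefore have no background beside them. No paired analysis was possible because each group holds 1 library, and no library could be left out. The small ChIP numbers of H3K9me3 in MD1 EpiSCs and of H3K27me3 in WT for Zfp300 and Zfp449 limit the precision there.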
